A study of Mus musculus with 2 samples.

Results

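Immediate early genes are the genes a cell transcribes first when a signal or a stress reaches it. The 32 followed here were transcription factors of the AP-1, EGR, NR4A and Krüppel-like families, the neuronal activity genes Arc and Npas4, and short-lived regulators of kinases, messenger RNA, the cell cycle and the cytoskeleton. They were taken by name, and all 32 had a row among the 26840 genes of the merged table. Of these, 29 reached 50 unique molecular identifiers (UMIs, which count captured transcripts) over both libraries in at least 1 named cell class, and 28 did so in a class large enough to compare the genotypes. Egr2, Egr3 and Arc did not reach it in any class, and Klf2 did so only in the few endothelial-like cells.

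The genes work in layers. Calcium, cyclic AMP and growth factor signals activate factors already present in the cell, such as CREB and SRF, and these switch on Fos, Egr1, Nr4a1 and Npas4 within minutes without new protein. FOS and JUN proteins then pair as AP-1 on their target genes, while DUSP phosphatases, SOCS3 and ZFP36 act against the kinases, cytokine receptors and unstable messenger RNAs that carried the signal. The same genes are also known to respond to enzymatic dissociation of tissue, so their levels in dissociated cells reflect the animal and the preparation together, and these parts cannot be told apart here.

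The cells came from the arcuate nucleus and median eminence, at the base of the hypothalamus, of CD-1 mice aged 7 to 8 weeks. One library was made from 7 pooled wild-type mice (WT) and 1 from 6 pooled mice of genotype Irx5-/- (Irx5KO), where Irx5 is a homeobox transcription factor gene. How the allele was made was not described in the labels. Sorted live cells were captured by Drop-seq, which counts transcripts at their 3' ends, so counts need no correction for transcript length. Each genotype is 1 library. No difference between them has a replicate check, no test between genotypes was made, and 95% intervals cover counting error only.

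The filtered WT data comprised 1819 cells with 3884458 UMIs and the filtered Irx5KO data 1949 cells with 4915775 UMIs, with a median of 1620 and 1692 UMIs per cell. Irx5 itself had 13 UMIs in WT and 0 in Irx5KO, where a count of 0 allows up to 3. The 32 genes took 0.748% of WT UMIs and 0.579% of Irx5KO UMIs. Cells fell into 13 classes named from marker genes and called "-like", since no deposited annotation was used, and 1 small unnamed group of 18 and 34 cells led by Krt17 and Krt5. The dissection also brought in pars tuberalis cells of the pituitary and neurons like those of the SCN, the suprachiasmatic nucleus, where the body's clock lies. One barcode sequence occurred in both libraries.

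The genes were far more abundant in glia and vessels than in neurons. Summed over the 32 genes, the level in tanycyte-like cells, glia that line the ventricle, was 19076 counts per 1000000 UMIs (CPM) in WT and 16269 in Irx5KO. In neuron-like cells it was 2814 and 2383. Mural-like cells of vessel walls stood at 16064 and 15142, and vascular and leptomeningeal (VLMC-like) cells at 14844 and 11725. Oligodendrocyte precursor (OPC-like) cells were as low as neurons, with 1970 and 2166. In both libraries tanycyte-like, mural-like and VLMC-like cells were thus high and neuron-like and OPC-like cells low. The order of all classes was not the same. Epithelial-like cells (16 WT and 23 Irx5KO cells) stood at 11569 and 19524, and endothelial-like cells (20 and 15) at 10538 and 18459. These small classes were above tanycyte-like cells in Irx5KO only.

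**Figure D1:**
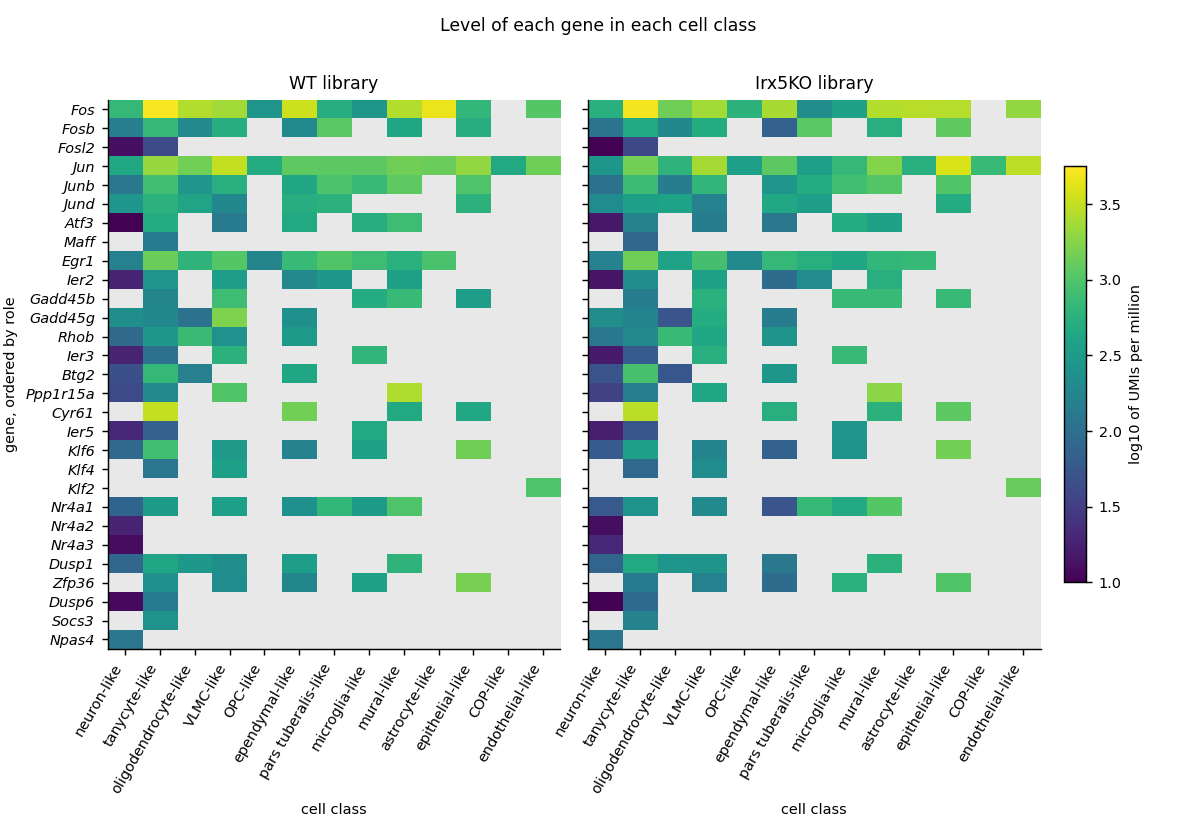
Colour gives the log10 of CPM for each of 29 genes (rows, by role) in 13 cell classes (columns) of the WT (left) and Irx5KO (right) library; grey marks a gene with under 50 UMIs over both libraries in that class. The neuron-like column is the darkest for most genes, and Fos, Jun, Cyr61 and Egr1 are brightest in tanycyte-like and other non-neuronal classes.

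Gene by gene, 25 of the 29 genes with 50 or more UMIs over tanycyte-like and neuron-like cells exceeded their neuronal level by 1.5-fold or more in both libraries, as did 17% of all genes. VLMC-like cells showed the same number, 25 of 29, against 12.7% of all genes. The counts were 17 of 27 in ependymal-like cells (14.4% of all genes), 16 of 24 in microglia-like cells (12.9%) and 12 of 28 in oligodendrocyte-like cells (12.7%). In OPC-like cells only 3 of 23 were, where 16.1% of all genes were. A gene could enter these counts through the class where it is high alone, as Klf4, Zfp36, Gadd45b, Cyr61, Maff and Socs3 did for tanycytes and Npas4 for neurons, so the counts describe the genes that passed and support nothing further.

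Among the FOS genes, Fos itself was highest in tanycyte-like cells, at 5273 CPM (95% Poisson interval 5080 to 5472) in WT and 5015 (4856 to 5179) in Irx5KO. Neuron-like cells held 677 (640 to 717) and 557 (531 to 584). OPC-like cells held 274 and 597, and microglia-like cells 288 and 379. COP-like cells, the committed precursors of oligodendrocytes, had 1 Fos UMI in WT and 0 in Irx5KO. Fos was therefore abundant in ventricular glia and vessels and scarce in the oligodendrocyte precursors and in microglia of both libraries.

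Fosb, a relative of Fos, followed another order. It was high in pars tuberalis-like cells, the endocrine cells at the pituitary stalk, with 1124 CPM (955 to 1313) in WT and 1100 (878 to 1362) in Irx5KO, above Fos in the same cells (519 and 223). In tanycyte-like cells Fosb stood at 675 and 470, well under Fos. Fosl2, a slower FOS relative, was measured in 2 classes only, with 43.2 and 39.0 in tanycyte-like and 13.02 and 9.72 in neuron-like cells.

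On the JUN side, Jun was measured in all 13 classes. Its peak lay in VLMC-like cells in WT, at 3137, and in epithelial-like cells in Irx5KO, at 3942, a class of 16 and 23 cells. Junb was highest in mural-like cells, with 1169 and 1025. Jund, which unlike Jun is made steadily in resting cells, ranged from 194 to 591 in WT and from 162 to 490 in Irx5KO over 7 classes, a narrower range than that of Jun. The stress factor Atf3 was lowest in neuron-like cells, at 9.06 and 14.9, and reached 789 in WT mural-like cells. Maff, a small partner of these factors, was measured in tanycyte-like cells alone, with 141 and 80.7.

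Egr1, a zinc finger factor often read as a mark of recent activity, was highest in tanycyte-like cells, at 1358 in WT and 1414 in Irx5KO, and lowest in neuron-like cells, at 161 and 167. Egr2 and Egr3 stayed under 50 UMIs in every class. Nr4a1, an orphan nuclear receptor, was highest in mural-like cells, with 979 and 1067. Nr4a2 and Nr4a3 were measured only in neuron-like cells, Nr4a2 at 18.1 and 12.6 and Nr4a3 at 12.5 and 20.7.

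The Krüppel-like factors were highest in different classes, among those where each reached 50 UMIs. A small class needs a higher CPM to reach 50 UMIs, so high levels in small classes can go unmeasured. Klf2, the shear stress factor of endothelium, reached 50 UMIs only in endothelial-like cells, at 982 and 1304 in 20 and 15 cells. Klf4 was measured in 2 classes only, with 358 and 216 in VLMC-like and 120 and 87.4 in tanycyte-like cells. Epithelial-like cells had the most Klf6, at 1440.1 and 1509. For Klf4 and Klf6 the highest class was the same in both libraries.

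Among the feedback genes, the phosphatase gene Dusp1 was highest in mural-like cells, at 614 and 586, and Zfp36, whose protein destroys AU-rich messenger RNAs, in epithelial-like cells, at 1538 and 1019. The ERK phosphatase gene Dusp6 stood at 131 and 91.5 in tanycyte-like cells and at 11.9 and 10.04 in neuron-like cells. Socs3, an inhibitor of leptin and cytokine receptor signalling, was measured in tanycyte-like cells alone, at 249.5 and 169.5. The neuronal factor Npas4 reached 50 UMIs in neuron-like cells alone, at 122 and 123, and pars tuberalis-like cells had 24 and 7 of its UMIs.

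Among the growth and stress genes, Cyr61, a secreted matrix protein and target of YAP, reached 3120 CPM (2972 to 3273) in WT and 2906 (2785 to 3031) in Irx5KO tanycyte-like cells, against 10.2 and 8.42 in neuron-like cells. Per Fos UMI there were 0.592 and 0.579 Cyr61 UMIs in tanycyte-like cells, 0.0150 and 0.0151 in neuron-like cells, and 0.00731 and 0.00526 in oligodendrocyte-like cells. The ratio of Cyr61 to Fos thus differed between classes and was close between the libraries in tanycyte-like and neuron-like cells.

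Ppp1r15a, which restarts translation after stress, was concentrated in mural-like cells, with 2675 (2301 to 3092) and 1861 (1495 to 2291), and stood at 41.3 and 33.7 in neuron-like cells. Gadd45g, a growth arrest gene, was highest in VLMC-like cells, with 1657 and 508, and Gadd45b in VLMC-like cells of WT, at 787, and epithelial-like cells of Irx5KO, at 736. Rhob, a small GTPase that organises actin and endosomes, was highest in oligodendrocyte-like cells, with 742 (661 to 831) and 727 (629 to 837). Ier3 and Ier5 were highest in microglia-like cells, Ier2 in mural-like cells and the antiproliferative gene Btg2 in tanycyte-like cells. Of 23 genes measured in at least 2 classes, 18 had the same highest class in both libraries, 6 of them tanycyte-like and 5 mural-like. Fosl2, Klf4 and Dusp6, among the 18, were measured in 2 classes only. The share of all genes that kept their highest class was not computed, so the count describes these genes alone.

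**Figure D2:**
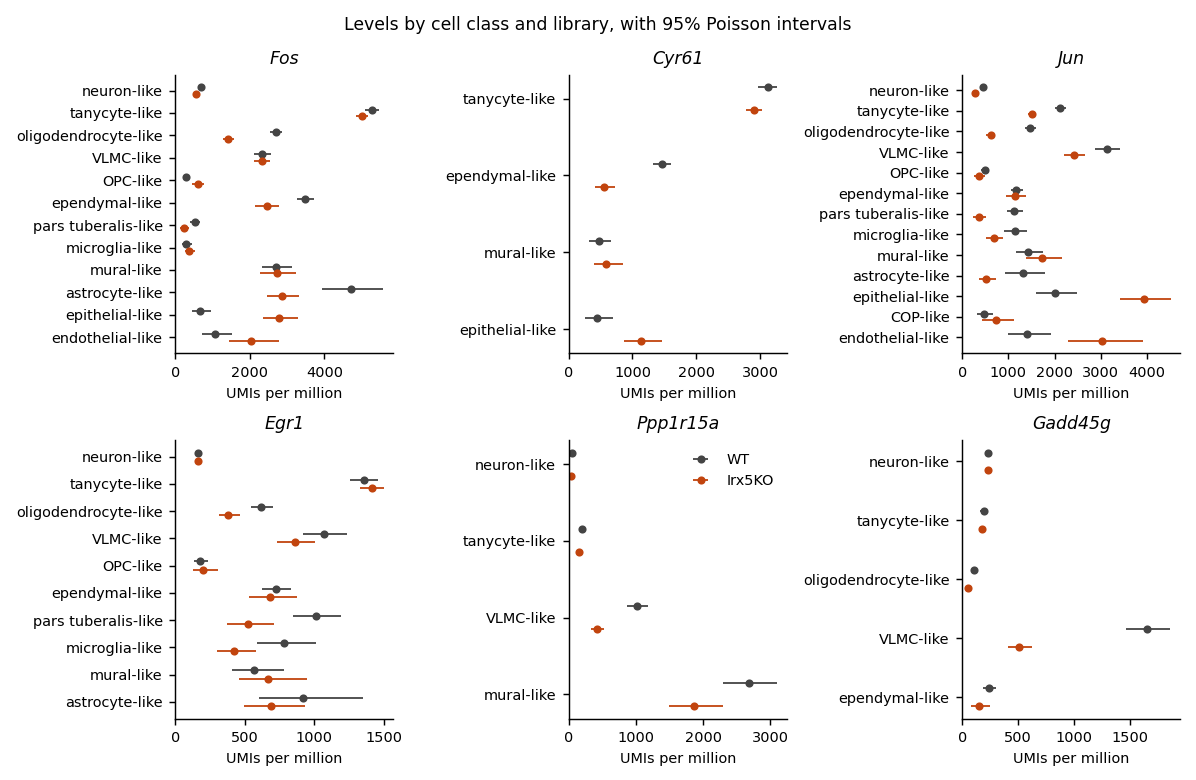
Points are CPM (linear axis from 0, each panel with its own scale) summed over the cells of each class, in the WT and Irx5KO library, with exact 95% Poisson intervals, for the 6 genes named above the panels, in classes where the gene had at least 50 UMIs. Fos, Cyr61 and Egr1 peak in tanycyte-like cells, Ppp1r15a in mural-like cells and Gadd45g in VLMC-like cells of WT.

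The results turn on genes spread over the genome. On GRCm38 (GENCODE vM21), Fos lies on chromosome 12 from 85473890 to 85477273, Cyr61 on chromosome 3 from 145646976 to 145649981, Jun on chromosome 4 from 95049034 to 95052222, Npas4 on chromosome 19 from 4984355 to 4990316, Gadd45g on chromosome 13 from 51846678 to 51848468 and Atf3 on chromosome 1 from 191170296 to 191218039. The labels do not state whether counting used the strand, and 7 of the genes (Jun, Junb, Jund, Atf3, Dusp1, Zfp36 and Ppp1r15a) overlap a gene on the other strand, so their counts are less certain. Dusp1 also overlaps 2 genes on its own strand, so its counts are less certain even if the strand was used. None of the 32 shares a run of 50 bases in the last 500 bases of its transcripts with another gene.

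The promoters were searched for the binding motifs of the factors that induce these genes. RefSeq windows of 300 bases (250 before and 50 after the start, build GRCm38.p6) were found for 28 of the 32 genes, and none for Egr1, Egr3, Ier2 and Arc. Both strands were searched for the full CREB site TGACGTCA, the AP-1 site TGANTCA, the EGR site GCGTGGGCG and the CArG box of SRF. Of 28 genes, 4 held the full CREB site (Btg2, Dusp1, Ppp1r15a and Maff). These 28 genes had 34 windows, and 4 of the 34 held this site (11.8%), against 1.79% of all 32851 windows. The CArG box was found for 2 of the 28 genes, Egr2 and Zfp36 (5 of 34 windows, and 1.63% of all windows). Overlapping windows of Egr2 starts held the same site, so the count of windows includes that site more than once. The EGR site was found for Maff (1 of 34, and 0.612%), and the AP-1 site for none (7.81% of all windows). The shorter CREB core TGACG, which the full site contains, was found for 16 of the 28, Fos, Fosb, Junb, Nr4a1, Npas4 and Cyr61 among them. It lay in 19 of the 34 windows, the overlapping windows of Egr2 among them, and in 20.8% of all windows. This core was added after the full site had been searched. A match describes letters and does not show that a factor binds there. Sites outside the windows were not searched, so a gene without a match may hold one elsewhere.

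Upstream sequence is shown for the genes measured in at least 3 classes that hold the full CREB site, because Btg2, Dusp1 and Ppp1r15a share that letter string and yet peaked in tanycyte-like cells (Btg2) and mural-like cells (Dusp1 and Ppp1r15a). Each runs 5′ to 3′ on the gene's own strand, which is the minus strand for all 3, and capitals mark the CREB site. The sequences cover chr1:134079156-134079405 for Btg2, chr17:26508520-26508722 for Dusp1 and chr7:45526269-45526329 for Ppp1r15a in GRCm38.p6. Only the unbroken stretch around the site that lies outside annotated exons (GENCODE vM21) is printed, which shortened Dusp1 to 203 and Ppp1r15a to 61 bases. For Ppp1r15a, other exon-free bases beyond an exon further upstream were left off too.
Btg2: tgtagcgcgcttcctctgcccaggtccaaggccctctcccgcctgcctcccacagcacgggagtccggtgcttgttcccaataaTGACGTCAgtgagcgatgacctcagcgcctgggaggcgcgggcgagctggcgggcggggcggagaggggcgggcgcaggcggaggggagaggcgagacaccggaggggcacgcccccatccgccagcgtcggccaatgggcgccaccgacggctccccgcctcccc
Dusp1: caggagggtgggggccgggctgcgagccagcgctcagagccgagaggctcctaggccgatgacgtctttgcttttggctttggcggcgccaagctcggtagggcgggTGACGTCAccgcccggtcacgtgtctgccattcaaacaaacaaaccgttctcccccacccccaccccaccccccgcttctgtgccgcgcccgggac
Ppp1r15a: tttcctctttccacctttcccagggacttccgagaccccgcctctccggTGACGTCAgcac
The site begins 166 bases before the start of Btg2, 143 before that of Dusp1 and 12 before that of Ppp1r15a. All 250 upstream bases of Zfp36 lie in an annotated exon and are not shown.

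The genes were detected together in single cells. Each cell was thinned to 1000 UMIs, which left out 380 WT and 404 Irx5KO cells. Among tanycyte-like cells with a Fos UMI, 64.4% (WT) and 64.1% (Irx5KO) also had an Egr1 UMI, against 9.84% and 14.5% of those without Fos. For Btg2 the shares were 52.2% and 46.9% against 4.92% and 10%, and for Cyr61 73.0% and 57.8% against 21.3% and 20.9%. Each of the 9 genes examined was found more often in the tanycyte-like cells with Fos, in both libraries. For Atf3 the intervals overlapped, with 19.0% (13.3 to 25.9) against 4.92% (1.03 to 13.7) in WT and 10.4% (6.48 to 15.6) against 2.73% (0.566 to 7.76) in Irx5KO. The share of all genes found more often in cells with Fos was not computed, so the count describes these genes alone. The class held clusters with unlike Fos levels, and their part in these shares was not tested.

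In neuron-like cells 8 genes were examined, a set that overlaps only in part with that of tanycytes. Jun was found in 41.3% and 32.3% of neuron-like cells with Fos against 13.9% and 15.4% of those without. Npas4 was found in 20.6% and 21.0% against 4.53% and 3.68%, and Nr4a1 in 11.6% and 12.3% against 1.70% and 2.28%. Jund was found in 28.4% and 23.1% against 25.8% and 19.3%, and Rhob in 7.74% and 9.74% against 9.63% and 11.1%, so neither differed beyond its interval. For the background share, Npas4 was seen in 0 of 162 WT and 0 of 100 Irx5KO oligodendrocyte-like cells, which allows shares of up to 1.85% and 3%, against 9.45% and 8.11% of neuron-like cells at the same depth. Median depths before thinning were 1849.5 and 1737.5 UMIs in the oligodendrocyte-like and 2130.5 and 2418.5 in the neuron-like cells. The median tanycyte-like cell held 17 UMIs of the 32 genes per 1000 in WT and 10 in Irx5KO, and the median neuron-like cell 2 and 1.

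**Figure D3:**
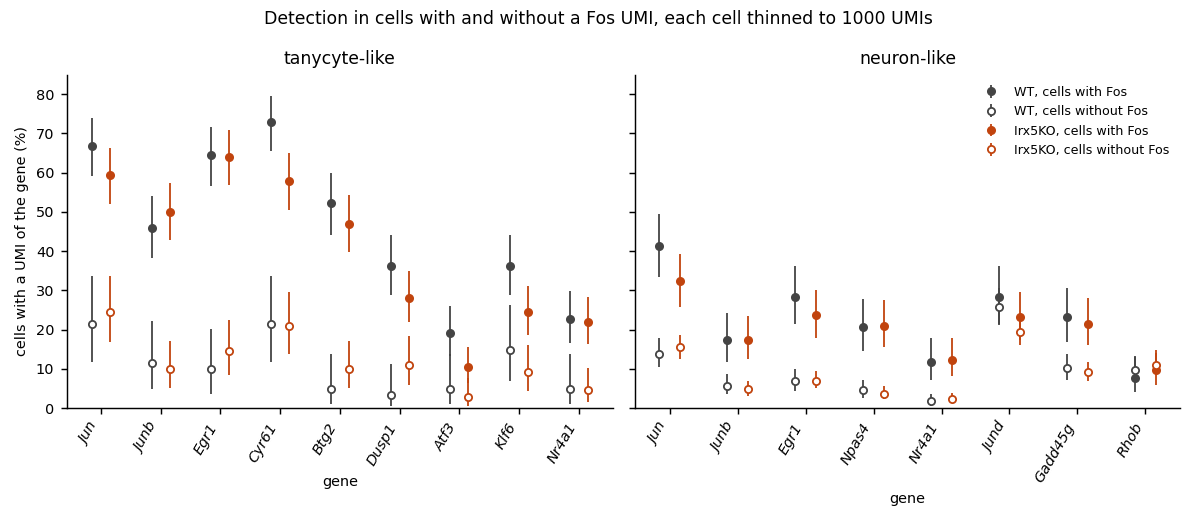
Points give the percentage of cells with a UMI of the gene on the horizontal axis, among cells with (filled) and without (open) a Fos UMI, in tanycyte-like (left) and neuron-like (right) cells of each library, each cell thinned to 1000 UMIs, with exact 95% Clopper-Pearson intervals. Filled points lie above open points for all 9 genes in tanycyte-like cells, where the intervals of Atf3 overlap, while Jund and Rhob overlap in neuron-like cells.

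The design compares these cells with and without Irx5. Of the 7 classes that had 50 or more cells in both libraries, 6 had a lower sum over the 32 genes in Irx5KO. The sum was 1.63-fold lower (1.52 to 1.74) in oligodendrocyte-like cells and 1.53-fold lower (1.41 to 1.67) in ependymal-like cells. It was lower by 1.27-fold in VLMC-like cells, 1.17-fold in tanycyte-like, 1.18-fold in neuron-like and 1.07-fold (0.959 to 1.19) in microglia-like cells. OPC-like cells were 1.10 times the WT level (0.939 to 1.29). For microglia-like and OPC-like cells the interval included 1. In neuron-like cells the log2 ratio of the sum was -0.24, and it was -0.036 with every cell weighted alike and 0.029 with every neuron cluster weighted alike, so its direction was not stable.

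Over all 7 classes, 105 pairs of a gene and a class had at least 50 UMIs. Of these, 30 were at least 1.5-fold lower in Irx5KO, 27 with an interval that left out 1, and 6 were at least 1.5-fold higher, 3 with such an interval. The size of 1.5-fold is a description and not a test. The lower pairs were spread over 6 classes and the share of all genes past the same size differs between classes, so it is given with each.

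In tanycyte-like cells 6 of 25 genes were at least 1.5-fold lower and none higher, where 8.22% of all genes were lower and 10.3% higher. Atf3 stood at 488 CPM in WT and 171 in Irx5KO, 2.86-fold lower (2.30 to 3.56), and Klf6 at 833 and 354, 2.35-fold lower (2.02 to 2.75). Zfp36 was 1.82-fold, Maff 1.74-fold, Ier3 1.69-fold and Jund 1.68-fold lower. Fos was 1.05-fold and Cyr61 1.07-fold lower, while Egr1 was 1.04 times and Btg2 1.30 times the WT level. Relatives of the lower genes did not all reach this size, with Junb 1.10-fold, Fosl2 1.11-fold and Klf4 1.37-fold lower. With cells weighted alike, Ier3 also stayed under it, at -0.28 on the log2 scale. The median log2 ratio was -0.44 for the 25 genes and 0.02 for all genes.

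The class held 2 clusters, and they differed. In the cluster led by Crym (199 and 278 cells), summed levels were 19119 in WT and 14823 in Irx5KO, and Fos stood at 6487 and 5217. In the cluster led by Scn7a (68 and 103 cells), sums were 18991 and 18883, while Fos was 2840 and 4650 and Egr1 671 and 1337. Klf6 was lower in Irx5KO in both, with 540 and 167 in the Crym cluster and 1420.1 and 691 in the Scn7a cluster. The direction of Fos and Egr1 thus depended on the tanycyte cluster and that of Klf6 did not.

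In oligodendrocyte-like cells 6 of 10 genes were lower and none higher, against 10.7% and 9.18% of all genes. Btg2 was 2.80-fold lower (1.58 to 5.28) on 64 and 15 UMIs, and Jun, at 1472 and 615 CPM, was 2.39-fold lower (2.01 to 2.86). Gadd45g was 2.06-fold, Fos 1.89-fold (2691 and 1425 CPM), Junb 1.85-fold and Egr1 1.62-fold lower. Gadd45g fell short of 1.5-fold at 200 genes per cell (-0.56 on the log2 scale) and with cells weighted alike (-0.53), and Egr1 at 800 genes per cell (-0.56). Rhob was 1.02-fold, Jund 1.01-fold, Dusp1 1.05-fold and Fosb 1.05-fold lower, each with an interval that held 1. Jun, Fos, Junb and Egr1 were thus lower while Rhob, which peaks in this class, was nearly level.

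In ependymal-like cells, which carry the beating cilia of the ventricle, 9 of 16 genes were lower and none higher, against 17.5% and 9.58% of all genes. Nr4a1 was 4.57-fold lower (1.86 to 14.5) on 66 and 5 UMIs, Atf3 3.69-fold and Cyr61 2.66-fold, with 1460.2 and 548 CPM. Fosb (55 and 7 UMIs), Dusp1, Klf6, Ier2, Zfp36 and Gadd45g were also lower, the last 2 with intervals that held 1. This class rested on 56 Irx5KO cells, of which 1 held 21.7% of their UMIs for the 32 genes. Without the cell with most of these UMIs in each library, the log2 ratio of Atf3 was -3.38 in place of -1.88. The cluster led by 3300002A11Rik (58 and 37 cells) had sums of 16061 and 7989, and the cluster led by Ccdc153 (90 and 19 cells) 7989 and 5648. With cells of 800 or more genes only, the sum turned to 0.21 on the log2 scale, above WT, as did Fosb (0.49), Ier2 (0.35), Nr4a1 (0.16) and Cyr61 (0.41), over 159 and 115 cells, so the class was then made up of other cells.

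In VLMC-like cells 5 of 18 genes were lower and 1 higher, against 15.1% and 12.2% of all genes. Gadd45g stood at 1657 in WT and 508 in Irx5KO, 3.26-fold lower (2.58 to 4.17), and was found in 66.7% and 25.6% of thinned cells. Ppp1r15a was 2.41-fold lower (1.84 to 3.19), and Klf6, Nr4a1 and Klf4 were 1.77-fold, 1.75-fold and 1.66-fold lower. Rhob was 1.71 times the WT level (1.16 to 2.55). At 800 genes per cell Klf6 (-0.39 on the log2 scale) and Rhob (0.57) were under 1.5-fold. Fos stood at 2332 and 2311.

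In neuron-like cells 1 of 22 genes was lower and 2 were higher, against 6.41% and 12.5% of all genes. Jun stood at 448 and 285 CPM, 1.57-fold lower (1.42 to 1.73), a size it fell short of when cells or clusters were weighted alike. Nr4a3 was 1.67 times the WT level (1.01 to 2.84) on 22 and 64 UMIs, and Atf3 1.65 times with an interval that held 1. Npas4 stood at 122 and 123 CPM, and Gadd45g was 0.985, Dusp1 0.965 and Egr1 1.03 times the WT level, with intervals that held 1. Under 1.5-fold but with intervals without 1, Fos was 0.822, Fosb 0.758, Jund 0.789, Klf6 0.712, Nr4a1 0.765 and Rhob 1.42 times WT. Of the 22 genes, 16 were below WT and 6 above. Their median log2 ratio was -0.26, against 0.066 for all genes. With cells weighted alike it was -0.055, and with clusters weighted alike -0.007.

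In OPC-like cells 1 of 3 genes was higher and none lower, against 7.96% and 14.5% of all genes. Fos had 72 and 65 UMIs there, 2.18 times the WT level (1.53 to 3.09), but 1 Irx5KO cell held 29.2% of these UMIs, and 18.3% and 19.3% of thinned cells had a Fos UMI. In microglia-like cells 3 of 11 genes were lower and 2 higher, against 14.1% and 17.8% of all genes. Egr1 was 1.85-fold (1.21 to 2.85) and Jun 1.67-fold lower (1.19 to 2.35; -0.32 on the log2 scale and under 1.5-fold at 200 genes per cell), and Ier5, Nr4a1 and Zfp36 had intervals that held 1.

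**Figure D4:**
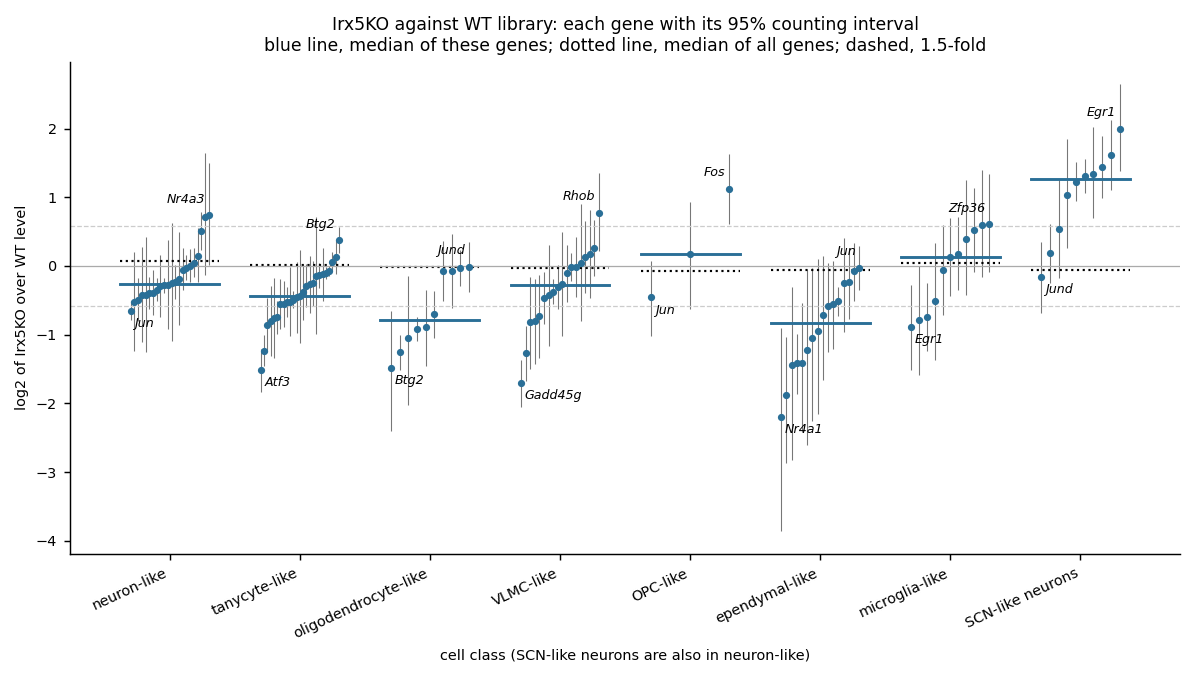
Each point is 1 gene's log2 ratio of the Irx5KO to the WT level with its exact 95% counting interval, by cell class, ordered within a class by ratio; the blue line is the median of these genes, the dotted line that of all genes and the dashed lines 1.5-fold. Points lie mostly below 0 in tanycyte-, oligodendrocyte- and ependymal-like cells and mostly above it in SCN-like neurons.

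One group of neurons had a higher sum in Irx5KO. Neuron-like cells were clustered again into 11 clusters, 1 of which was led by Vip, Nms and Rgs16 and called SCN-like from its markers (99 WT and 63 Irx5KO cells). It was singled out after its values were seen. Here the 32 genes summed to 3888 (WT) and 8260 (Irx5KO) CPM, 2.12 times the WT level (1.95 to 2.31). The other 3 clusters large enough to compare stood at 0.849 (led by Fezf1), 0.713 (Gm12152 and Ghrh) and 0.889 (Oxt and Avp) times WT. The difference between the SCN-like cluster and these was not tested. Among the smaller clusters, that led by Ttr, Cck and Pdyn stood at 1533 and 1886 CPM in 32 and 73 cells, Kndy-like neurons at 2201 and 2268 and Foxb1-like neurons at 2052 and 2059, so not all others were lower.

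In SCN-like neurons 7 of 10 genes were at least 1.5-fold higher in Irx5KO and none lower, against 9.71% and 12.5% of all 1772 genes measured there. Egr1 stood at 129.8 CPM in WT and 519 in Irx5KO, 4.0 times WT (2.62 to 6.27), and Fosb at 208 and 635, 3.06 times. Npas4 stood at 277 and 749.8 (2.71 times), Nr4a1 at 134 and 340.3 (2.54 times), Fos at 904 and 2238 (2.48 times, 2.09 to 2.94), Gadd45g at 727 and 1702 (2.34 times) and Junb at 104 and 213 (2.06 times). With called doublets kept, the log2 ratio of Egr1 was 1.06 in place of 2, and that of Junb 0.49 in place of 1.04 and 0.51 with each library's own table, under 1.5-fold. Jun was 1.14, Jund 0.895 and Dusp1 1.46 times WT, with intervals that held 1. The 7 higher genes thus included factors that neurons are known to induce on firing, such as Fos, Egr1 and Npas4. Other inducible genes measured there stayed under 1.5-fold, with Vgf 1.497, Crem 1.38, Scg2 1.17 and Sik1 1.03 times WT. The intervals of Crem and Sik1 held 1. Whether firing differed between the libraries was not tested. The median log2 ratio was 1.27 for the 10 genes and -0.06 for all genes.

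After thinning, the shares of cells with a UMI had overlapping intervals for each of the 4 genes examined. Fos was found in 34.9% (24.8 to 46.2) of 83 WT and 50.8% (37.5 to 64.1) of 59 Irx5KO SCN-like cells, and Npas4 in 12.05% (5.93 to 21.0) and 16.95% (8.44 to 29.0). Gadd45g was found in 22.9% (14.4 to 33.4) and 42.4% (29.6 to 55.9), and Egr1 in 8.43% (3.46 to 16.6) and 20.3% (10.98 to 32.8). The single cell with most UMIs of the 32 genes held 20.02% and 17.7% of them. Leaving out that cell in each library gave a log2 ratio of 1.18 for the sum.

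The cluster's neuropeptides also differed between the libraries. Vip was 1.58 times (1.46 to 1.71) and Nms 1.64 times the WT level, Avp 0.794 times and the VIP receptor gene Vipr2 0.589 times, while the other SCN markers Prok2, Lhx1, Rorb and Six6 were 1.12, 1.06, 1.10 and 0.797 times WT. Among cells with more Vip than Avp UMIs (18 and 22 cells), the summed genes stood at 7684 and 13533, a ratio of 1.76 (1.55 to 2.01). Among cells with more Avp than Vip (52 and 27 cells) they stood at 2949 and 5819, a ratio of 1.97 (1.72 to 2.27). Summed over cells, the level was thus higher in cells with more Vip than in cells with more Avp in each library. The cell with most of these UMIs held 20.02% (WT) and 17.7% (Irx5KO) of the cluster's total. The splits were not repeated without it, so single cells may weigh heavily in them. Single genes differed between the splits, with Gadd45g at 1.03 times WT (0.802 to 1.32) in cells with more Vip and 4.44 times (3.01 to 6.68) in cells with more Avp. In the remaining cells (29 and 14), with as many Vip as Avp UMIs, the ratio was 1.23 (0.988 to 1.54), and that of Fos 0.913 (0.550 to 1.49). These splits were added after the values were seen and used peptides that themselves differed between the libraries. The part of cell make-up in the ratios was not tested.

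**Figure D5:**
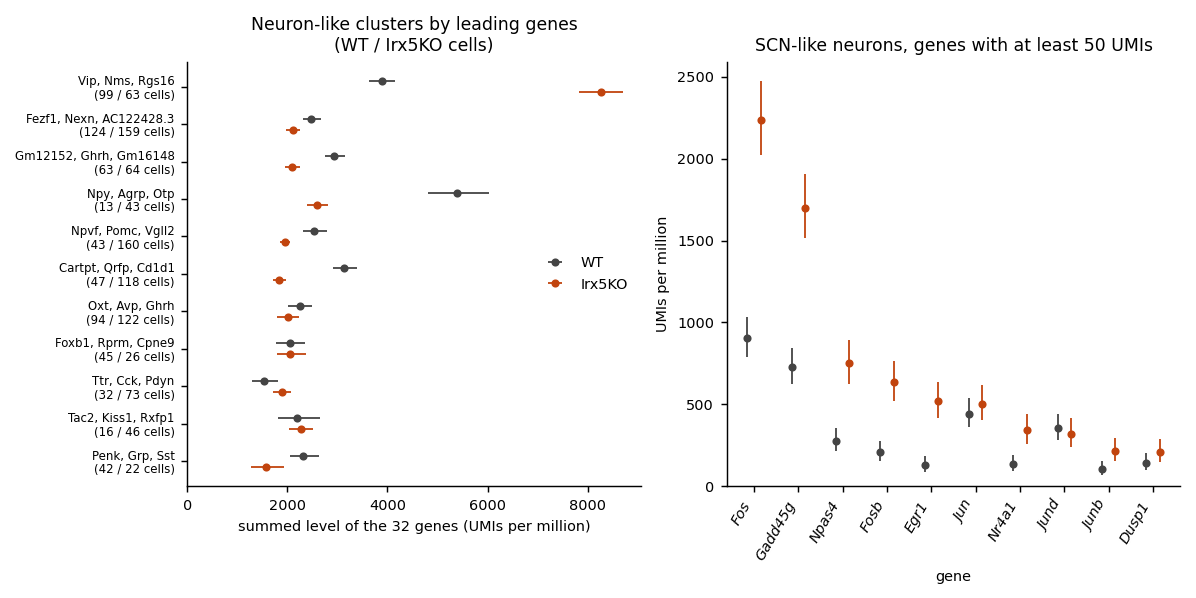
Left, summed CPM of the 32 genes in each neuron-like cluster, named by its 3 leading genes, with WT and Irx5KO cell numbers; right, each gene with at least 50 UMIs in SCN-like neurons; bars are exact 95% Poisson intervals and axes start at 0. The cluster led by Vip stands at 3888 in WT and 8260 in Irx5KO, and the Agrp cluster at 5398 and 2588 on 13 and 43 cells.

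Later and other inducible genes formed a list of 48, read here beside the shares of all genes past 1.5-fold, lower and higher. In tanycyte-like cells 25 were measured, with 6 lower (Ddit3, Gem, Trib1, Pim1, Hes1 and Btg1) and 1 higher (Nfkbiz), against 8.22% and 10.3% of all genes. In VLMC-like cells 6 of 11 were lower and 0 higher, against 15.1% and 12.2%. In neuron-like cells 5 of 31 were lower, Bdnf and Sik1 among them, and 1 was higher, against 6.41% and 12.5%. In oligodendrocyte-like cells 1 of 7 was lower and 3 were higher (Sgk1, Nfkbia and Pim3), against 10.7% and 9.18%. Few were measured elsewhere, with 2 of 4 lower and 0 higher in ependymal-like cells (17.5% and 9.58% of all genes), 1 of 5 each way in microglia-like cells (14.1% and 17.8%) and 1 of 3 each way in OPC-like cells (14.5% and 7.96%).

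Heat shock genes, which encode chaperones and are also known to be induced by dissociation, differed between the libraries in most of the same classes. Summed, they were lower in Irx5KO in 6 of the 7 classes, with 18885 and 12416 CPM in VLMC-like, 15719 and 11354 in oligodendrocyte-like, and 13576 and 10585 in tanycyte-like cells. Microglia-like cells went the other way, with 7910.3 and 11318, and Hspa1a 2.03 times WT (1.67 to 2.48). The median share of mitochondrial UMIs was also lower in Irx5KO in all 7, with 2.16% and 1.64% in tanycyte-like cells. Red cell transcripts were lower in Irx5KO in all 7 classes, with 135 and 24.0 CPM in neuron-like cells. In SCN-like neurons heat shock genes stood at 9865.6 and 10301 CPM, the median mitochondrial share at 1.58% and 1.27%, tanycyte markers at 104 and 86.5 CPM, and red cell markers at 129.8 and 28.8 CPM. The part of these levels in the differences between the libraries was not tested.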

How the data were processed

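Per the labels, live sorted cells were profiled by Drop-seq with amplification of 3' ends; bcl2fastq, Picard, STAR 2.6.0b, Seurat 3 and build mm10 are named in the submitters' processing notes. The merged table, as deposited by the authors, holds the natural log of 1 plus UMIs scaled to 10000 per barcode; these values were inverted to UMI counts, which came out whole (within 1e-06) for 100% of values. The deposited table of the WT library holds raw UMI counts and that of Irx5KO natural log values; both served only as a check and an alternative.

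Barcodes with at least 500 genes were kept, and cells called as doublets by Scrublet at an assumed rate of 5% (10 in WT and 23 in Irx5KO) were removed. Cells were clustered with scanpy 1.11.5 and leidenalg 0.10.2 (2000 variable genes without the 32, 30 components, 15 neighbours, resolution 1) and named from marker lists, where a name needed 3 markers raised in the cluster. Levels are counts per 1000000 UMIs (CPM) summed over the cells of a class, with exact 95% Poisson intervals (scipy 1.17.1). Ratios have exact conditional binomial 95% intervals and were computed where both libraries had 50 or more cells of a class and a gene had 50 or more UMIs over the pair. With 1 library per genotype no test was made.

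All 32 genes were accounted for: those at least 1.5-fold apart are named, then the leading gene of each role. On simulated Poisson counts with 200 changed genes per class, intervals held the true ratio for 95.7% to 96.6% of genes. The intervals assume such counts, and the simulation had no variation between cells. It therefore checks the calculation only and not whether the intervals cover the spread in these data. Counting error alone put 3.91% (neuron-like) to 12.8% (ependymal-like) of unchanged genes past 1.5-fold. Alternatives were the gene minimum, the library's own tables, doublets, resolution, clusters formed with the 32 genes, weighting, scaling and the UMI minimum. The members and lists were chosen with earlier results of these data known. The SCN-like cluster, its splits and the removal of the cell with most UMIs were chosen after seeing the data. A list of upstream genes is not reported here.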

Additional observations from a re-analysis of the deposited data

Results flagged for a closer look

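Several genes had log2 ratios of Irx5KO to WT in opposite directions in different cell classes, each at least 1.5-fold with an interval that left out 1. None of these differences was tested, since each class has 1 library per genotype, and each is given as the difference of 2 log2 ratios between the class where the gene was higher in Irx5KO and the class where it was lowest. For Fos the difference was 2.04 between OPC-like and oligodendrocyte-like cells and 2.23 between SCN-like neurons and oligodendrocyte-like cells. For Fosb it was 3.06 and for Nr4a1 3.54 between SCN-like neurons and ependymal-like cells, where Irx5KO had 7 UMIs of Fosb and 5 of Nr4a1 and both log2 ratios reversed, to 0.49 and 0.16, at 800 genes per cell. For Junb it was 1.93 against oligodendrocyte-like (its SCN-like log2 ratio was 0.49 with doublets kept), for Egr1 2.89 against microglia-like and for Gadd45g 2.93 against VLMC-like cells. Summed over the 32 genes, SCN-like neurons differed by 1.58 from the neuron cluster led by Gm12152 and Ghrh.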

How the results depend on the processing

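No paired analysis was possible because each genotype has 1 library. The values here are log2 ratios of Irx5KO to WT. The summed genes stood at -0.24 in neuron-like cells, and at -0.32 with each library's own table, -0.31 with median of ratios scaling, -0.036 with cells weighted alike and 0.029 with clusters weighted alike. In tanycyte-like cells the sum was -0.23, and -0.33 with cells weighted alike; in oligodendrocyte-like cells -0.70, and -0.53 with cells weighted alike and -0.83 with trimmed mean scaling. In microglia-like cells it was -0.097, and -0.30 at resolution 2. In SCN-like neurons it was 1.09, and 0.96 with each library's own table and 0.86 with doublets kept. In ependymal-like cells it was -0.62, and -0.84 with cells weighted alike, -0.80 with clusters weighted alike, -0.77 with trimmed mean scaling and -0.89 without the cell with most UMIs of these genes. At 800 or more genes per cell it reversed to 0.21, with Fosb at 0.49, Ier2 at 0.35, Nr4a1 at 0.16 and Cyr61 at 0.41. The class then included a cluster of 89 WT and 102 Irx5KO cells led by Pdzph1, whose second name from the marker lists was tanycyte. The part of this cluster in the reversal was not tested. The ependymal-like class had too few cells to compare at 200 genes per cell, with own tables, with doublets kept and with the 32 genes among the clustering genes, and the microglia-like class at 800 genes. Of pairs at least 1.5-fold higher in Irx5KO there were 3 at resolution 2, 13 at a minimum of 20 UMIs and 2 at 100 UMIs, where 18 were lower, against 6 higher and 30 lower as reported. Of the 37 ratios past 1.5-fold with an interval without 1 (30 over classes and 7 in SCN-like neurons), 28 to 37 stayed past it in the same direction under each of 11 alternatives, and up to 7 could not be compared because their class was too small. Those that lost this size are named beside their values in the results. Trimmed mean scaling shifted all genes by 0.13 in oligodendrocyte-like, 0.16 in OPC-like and 0.15 in ependymal-like cells. Egr2, Egr3 and Arc had too few UMIs for a ratio in every class, and so had most of the 32 genes in OPC-like and microglia-like cells.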

Other observations

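Arc, which neurons are known to transcribe and deliver to dendrites after firing, stayed under 50 UMIs in each class. Oligodendrocyte-like cells had 28 UMIs in WT and 14 in Irx5KO (68.8 and 52.5 CPM), and neuron-like cells 21 and 12 (11.9 and 3.89). After thinning to 1000 UMIs, an Arc UMI was found in 7.41% and 7.00% of oligodendrocyte-like cells and in 1.77% and 0.261% of neuron-like cells. In both libraries Arc was thus more frequent in the oligodendrocyte-like class than in neurons, on few molecules.

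Egr2 had 26 and 20 UMIs in tanycyte-like cells, 27 and 2 in oligodendrocyte-like cells and 7 and 30 in neuron-like cells. Egr3 had 1 UMI in WT pars tuberalis-like cells and 1 in Irx5KO epithelial-like cells.

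The unnamed cells led by Krt17 and Krt5, keratin genes of basal epithelium, had the highest summed level of the 32 genes in WT, at 22261 CPM in 18 cells. In Irx5KO they stood at 17050 in 34 cells, below the epithelial-like (19524) and endothelial-like (18459) cells. Clusters of neurons too small to compare included Agrp-like neurons, which drive feeding, with 5398 CPM in 13 WT cells and 2588 in 43 Irx5KO cells, and Kndy-like neurons, which pace reproductive hormones, with 2201 in 16 and 2268 in 46 cells.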
